A study of Drosophila melanogaster with 3 samples.

Results

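The 10 genes described here are 9 regulators of maternal mRNA in Drosophila melanogaster and the zygotic activator zld. They are zld, smg, brat, pum, nos, osk, cup, me31B, tral and png, read here on a map of where the protein CG9609 sits on the genome. The genes were chosen by symbol and are 10 of 13968 protein-coding genes of the annotation, in which 9 carry the same symbol and nos is listed as nanos (FBgn0002962). Chromatin came from whole embryos of 0 to 24 h, male and female pooled, of 1 transgenic line, CG9609-GFP, in which CG9609 carries green fluorescent protein (GFP) at its C-terminus, and was precipitated with an anti-GFP antibody. There was 1 group with 3 biological replicates and no other genotype, so nothing below compares conditions and no p-value is given. Embryos of all these ages were mixed, so strong occupancy in few cells and weak occupancy in many cannot be told apart.

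Before the zygotic genome is switched on, a fly embryo runs on mRNAs that the mother loaded into the egg. RNA-binding proteins hold those mRNAs silent, place some of them at the posterior pole, and later direct their destruction, while the transcription factor Zelda, the product of zld, opens the zygotic genes. The mRNAs of many of these regulators are themselves maternal, and their translation is switched on and off around egg activation.

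Each peak has a summit and a signal value, the authors' own, which here serves to rank the regions of a list from 1, the strongest. The reproducible set, which the authors thresholded by the irreproducible discovery rate, a measure of how far rankings repeat, held 3747 peaks, and these were exactly the 3747 strongest regions of the 29054 in the pooled list, with a lowest signal of 90.0. The replicate lists held 30000, 29898 and 30000 regions, most of them weak, and a replicate's strongest regions are its first 3747. Read depth is unknown. Replicate 1 stood apart, since 7.31% of its strongest regions had summits in coding exons away from promoters, against 0.774% in replicate 2 and 0.294% in replicate 3.

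Of the 10 genes, 4 had a reproducible summit within 500 bp of a transcription start site (TSS), which is called a promoter peak here. These were tral, nos, brat and smg (40.0%, 95% Wilson interval 16.8 to 68.7%), where 18.8% of all protein-coding genes had one. A reproducible summit inside the gene was found in brat, pum, smg and cup, again 4 of 10, against 10.1% of all genes. Longer genes can hold more summits, and among the 1985 genes of at least 10 kb the share was 35.6%; of the 4 such genes here, brat, pum and cup had a summit inside and zld had none. Sets built from peaks shared between replicates were smaller and gave fewer genes. The 2650 peaks shared without replicate 1 gave 3 genes with 5 summits (7.79% of all genes), the 2332 without replicate 2 gave brat and pum with 2 summits (7.202%) and the 2371 without replicate 3 gave 3 genes with 4 summits (7.23%). The 2023 peaks shared by all 3 replicates gave brat and pum with 2 summits (6.38% of all genes), so leaving out a replicate and the smaller set cannot be told apart here. No reproducible summit lay at the promoter or in the body of zld, osk, me31B or png. The intervals cover counting error only, and with 10 genes the interval of the promoter share reaches below 18.8%.

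In all, 13 reproducible peaks lay at 6 of the genes, with ranks from 214 to 3570 and a median of 1640, where the median rank of the whole set was 1874. All 5 promoter peaks were upstream of the gene's nearest TSS, and all 9 summits inside genes were in introns, 1 of them, in smg, being also a promoter peak. Over all genes, 87.5% of 2885 pairs of a gene and a promoter summit had the summit upstream, and 77.5% of 2176 pairs of a gene and a body summit had it in an intron, so both were common in the whole set. The bodies of the 10 genes span 269.2 kb and held 3.34 summits per 100 kb, against 2.24 per 100 kb over all protein-coding gene bodies. The first value rests on 9 summits, carries no interval and was not tested against the second. By gene, it was 0.0233 per kb in pum, which makes up most of the length, 0.0653 in brat, 0.0900 in cup and 0.130 in smg. In every replicate, 5 of the 13 peaks were matched by one of the strongest regions with a summit at most 100 bp away, as were 55.4% of the whole set.

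**Figure D1:**
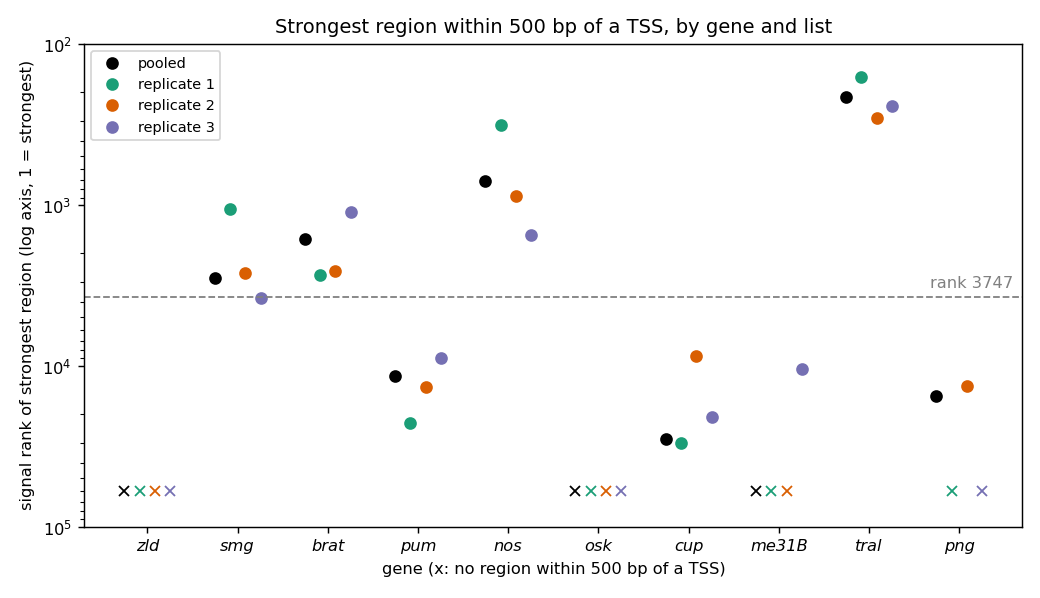
Signal rank (log axis, strongest at the top) of the strongest region within 500 bp of a TSS of each of the 10 genes, in the pooled list and the 3 replicate lists; crosses mark lists with no such region and the dashed line is rank 3747. The points of tral, nos and brat lie above the line in every list, those of smg cross it in replicate 3 only, and pum, cup, me31B and png have weak regions at most.

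Taken from the replicates alone, the count was nearly the same. Promoters of smg, brat, nos and tral held a region among the strongest in replicate 1, again 4 genes in replicate 2, and 3 genes in replicate 3, where smg missed. The shares over all genes were 16.8%, 18.7% and 18.5%. With regions of any rank counted, 7 of the 10 genes had one at the promoter in the pooled list (51.5% of all genes), 6 had one in each of the 3 replicate lists (31.0% of all genes) and 8 had one in at least 1 list (69.2% of all genes). Only zld and osk had no region of any rank within 500 bp of a TSS in any of the 5 lists.

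The first group holds the kinase and the repressor that lead into the transition, and the factor that opens the zygotic genome. The gene png encodes the Pan gu kinase, which at egg activation relieves the repression of smg mRNA, among others. It is a short gene of 1.11 kb on X (FBgn0000826, 1356488 to 1357601). Its only region was weak, a summit in the coding exon 271 bp downstream of the TSS at rank 15330 of the pooled list and rank 13398 of replicate 2, with none in replicates 1 and 3. The nearest reproducible summit was 12569 bp away, with ssx as its nearest gene.

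The gene smg (FBgn0016070, 3L from 8990317 to 8997989, minus strand) encodes Smaug, which binds hairpins in maternal mRNAs and brings the CCR4-NOT deadenylase to them. It has 5 TSSs, and peaks lay within 500 bp upstream of 2 of them. The first summit, at rank 2826 with a signal of 110.3, was in an intron 123 bp upstream of the TSS of the transcript smg-RE and 199 bp downstream of that of smg-RC. Its rank was 3005 in replicate 1, 2636 in replicate 2 and 3787 in replicate 3 (mean 3143 ± 588, SD, n = 3), so it was among the strongest regions in replicates 1 and 2 and just outside them in replicate 3. The second, at rank 3231 with a signal of 100.2, lay 77 bp upstream of the outermost TSS, that of smg-RB, and 118 bp upstream of CG5087 on the other strand. Its ranks were far apart, 1063 in replicate 1, 9437 in replicate 2 and 4996 in replicate 3 (mean 5165 ± 4190, SD, n = 3), so that replicate 1 alone placed it among its strongest regions. The canonical TSS of smg was 722 bp from the nearest reproducible summit, and with canonical TSSs only smg had no promoter peak.

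The bases within 50 bp of both smg summits are shown because these peaks of 1 gene differ in composition. They are from the dm6 genome (RefSeq release of the same assembly), plus strand, 5′ to 3′, with capitals marking letters that match a searched motif, here TATCG, the reverse complement of CGATA, the core of the DNA replication-related element (DRE).
smg intron peak, chr3L:8996322-8996422: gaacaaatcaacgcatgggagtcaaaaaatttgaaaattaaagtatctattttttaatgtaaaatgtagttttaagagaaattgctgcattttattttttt
smg upstream peak, chr3L:8998016-8998116: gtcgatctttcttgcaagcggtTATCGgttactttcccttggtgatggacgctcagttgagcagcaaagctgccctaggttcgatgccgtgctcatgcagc
The intron window was 22.8% G and C and the upstream window 53.5%, where the median window of the whole set had 36.6%.

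The gene zld (FBgn0259789, X from 19766465 to 19783548, minus strand) encodes the zinc finger factor Zelda. It had no region within 500 bp of either TSS in any list, and the nearest reproducible summit was 38754 bp away, 42 bp from the TSS of Rpp20 and CG33932, which are annotated over the same span. Regions inside the gene stayed below the threshold of the set. The strongest, in an intron 12874 bp downstream of the nearer TSS, had rank 4872 and a signal of 74.9 in the pooled list. The same summit position had rank 5025 in replicate 1 and rank 3625 in replicate 3, which put it among the strongest regions of replicate 3 only, and replicate 2 had its best region elsewhere, in an intron 8577 bp from the TSS at rank 4176.

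The second group is the trio that silences hunchback mRNA at the posterior pole, nos, pum and brat. The gene nos (FBgn0002962, 3R from 19157238 to 19160202) encodes Nanos, the posterior determinant. Its promoter peak, on 3R from 19156666 to 19157055, had rank 713 and a signal of 246.5, with the summit 377 bp upstream of the only TSS. It was among the strongest regions of every replicate, at rank 319 in replicate 1, 879 in replicate 2 and 1529 in replicate 3 (mean 909 ± 606, SD, n = 3). The summit lay nearer to another gene, 49 bp upstream of a TSS of CG11779, which runs on the opposite strand and overlaps nos. Within nos itself the regions were weaker and all in coding exons, the best of them at rank 4171 in replicate 1, 26662 in replicate 2 and 5086 in replicate 3.

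The gene brat (FBgn0010300, 2L from 19133816 to 19179758) encodes Brain tumor, an NHL-domain repressor of translation. With 4 reproducible peaks it shared the highest number among the 10 genes with pum. The strongest, at rank 381 with a signal of 340.5, was in an intron 718 bp upstream of the innermost TSS, that of brat-RF, and so outside the promoter window of 500 bp. Its ranks were close, 581 in replicate 1, 433 in replicate 2 and 309 in replicate 3 (mean 441 ± 136, SD, n = 3). The promoter peak at rank 1640, with a signal of 156.6, lay 184 bp upstream of the first TSS and ranked 2733, 2556 and 1109 in replicates 1, 2 and 3 (mean 2133 ± 891, SD, n = 3). Its summit was 149 bp upstream of a TSS of Polr1D, which encodes a subunit of RNA polymerases I and III and runs the other way. Polr1D overlaps the start of brat, and this summit lay within it. The other peaks, at ranks 1859 and 3570, were in an intron 792 bp apart, 8063 and 7271 bp downstream of the first TSS. A TSS of Polr1D was nearer to both, at 6646 and 5854 bp. Replicate 3 ranked them 1110 and 3041, both among its strongest, replicate 2 ranked them 2590 and 7004, with the first among its strongest, and replicate 1 ranked them 4878 and 6284, both weaker. The middle TSS, of brat-RB and brat-RC, had a region 73 bp downstream in the pooled list at rank 4877, below the threshold of the set, with a signal of 74.9. Replicates 2 and 3 had a region there at ranks 3948 and 4400, and replicate 1 had none.

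Sequences at brat are shown because its promoter region is the 1 of the 13 regions that holds a full DRE. The first is the window within 50 bp of the intron summit of rank 381, with CTCTC, the reverse complement of GAGAG, in capitals. The second is the window of the promoter summit, with the TATA box in capitals, and the third is the stretch with the DRE in capitals, whose centre lies 164 bp from the summit and 20 bp upstream of the brat TSS.
brat intron peak, chr2L:19165099-19165199: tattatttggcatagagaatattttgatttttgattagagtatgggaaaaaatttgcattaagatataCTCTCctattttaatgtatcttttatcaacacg
brat promoter peak, chr2L:19133582-19133682: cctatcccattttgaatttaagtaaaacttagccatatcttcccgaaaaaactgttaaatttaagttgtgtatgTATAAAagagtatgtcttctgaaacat
brat promoter DRE, chr2L:19133773-19133815: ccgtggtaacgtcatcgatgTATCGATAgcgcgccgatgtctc

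The gene pum (FBgn0003165, 3R from 9066343 to 9237682, minus strand) encodes Pumilio, the founding member of the PUF family of RNA-binding proteins. It is the longest of the 10 at 171340 bp, and it had no promoter peak but 4 intron peaks. Of these, 3 stood in a row, 4309 and 4694 bp apart, around the TSS of pum-RB, at 2411 bp upstream (rank 835, signal 227.1), 1898 bp downstream (rank 1490) and 6592 bp downstream (rank 1635). The one of rank 835 lay within lncRNA:CR45196, a non-coding RNA gene on the other strand, and ranked 1892, 602 and 1081 in replicates 1, 2 and 3 (mean 1192 ± 652, SD, n = 3). The one of rank 1490 ranked 856 in replicate 2 and 2158 in replicate 3, and the nearest summit of replicate 1, at rank 2291, was 114 bp off, past the 100 bp allowed. The one of rank 1635 ranked 4601, 1437 and 1556. The last, at rank 3540, was 10230 bp downstream of the innermost TSS and ranked 4282 in replicate 1 and 3381 in replicate 2, while the nearest summit of replicate 3 was 125 bp off, at rank 5686. Replicates 2 and 3 thus placed the row of 3 peaks among their strongest regions, and replicate 1 did so within 100 bp for the first of them. At the promoters of pum the best regions were weak, at rank 22532, 13548 and 8982 in replicates 1, 2 and 3.

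The window of the pum peak of rank 835 is shown as the strongest of that row; no searched motif occurs in it.
pum intron peak, chr3R:9229201-9229301: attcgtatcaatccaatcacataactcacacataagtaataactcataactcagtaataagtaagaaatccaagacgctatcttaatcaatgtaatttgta

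**Figure D2:**
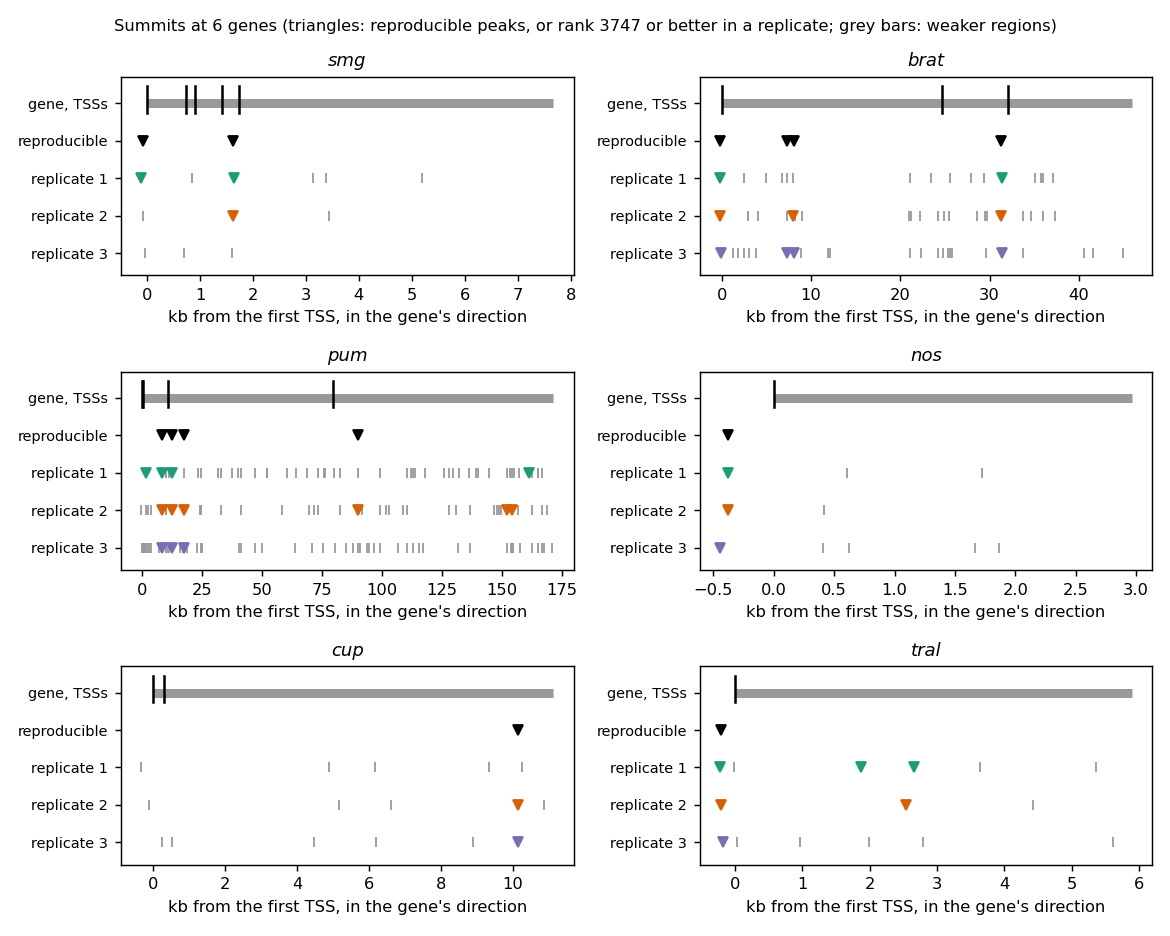
Summits at the 6 genes with a reproducible peak, by distance in kb from the gene's outermost TSS in its own direction. Upright bars on the grey gene mark TSSs, black triangles reproducible summits, coloured triangles summits among the 3747 strongest of a replicate and grey bars weaker regions; pum shows its row of 3 peaks, 4309 and 4694 bp apart, and brat its strongest peak 718 bp upstream of the innermost TSS.

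The third group is the ribonucleoprotein that carries and silences maternal mRNA, with Cup, ME31B and Trailer hitch, and osk, one of the mRNAs it silences. The gene tral (FBgn0041775, 3L from 12515059 to 12520954) encodes Trailer hitch, an LSm-domain partner of ME31B. Its promoter peak, on 3L from 12514760 to 12514984, was the strongest at any of the 10 genes, with rank 214 and a signal of 424.5. Its ranks were 160, 290 and 243 in replicates 1, 2 and 3 (mean 231.0 ± 65.8, SD, n = 3), all high and close together. The summit lay 210 bp upstream of tral and 34 bp upstream of sti, the citron kinase gene sticky, on the opposite strand. It was also within lncRNA:CR45168, a non-coding RNA gene. In the body of tral, replicate 1 placed 2 coding exon regions among its strongest, at ranks 2934 and 3578, and replicate 2 placed 1, at rank 3515. The pooled list had its best region there at rank 9767, also in a coding exon, and replicate 3 at rank 8583, in an intron. These lie beside the higher coding exon share of replicate 1 given above, and its part in them was not tested.

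The stretch under the tral summit is shown because this is the strongest peak at the 10 genes, ended where the 5′ UTR of sti begins; none of the searched motifs is in it.
tral promoter peak, chr3L:12514816-12514899: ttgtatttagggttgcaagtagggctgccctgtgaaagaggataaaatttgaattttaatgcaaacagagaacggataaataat

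The gene cup (FBgn0000392, 2L from 6663664 to 6674780) encodes a protein that binds the cap-binding factor eIF4E and blocks translation. Its promoters had only weak regions, with best ranks of 29947, 8713 and 20803 in replicates 1, 2 and 3. The 1 reproducible summit in cup, at rank 2028 with a signal of 136.9, was in an intron 9826 bp downstream of the nearer TSS. Its rank was 2473 in replicate 2 and 1532 in replicate 3, while the nearest summit of replicate 1 was 106 bp away at rank 7806. That summit also lay at promoters of other genes, 170 bp upstream of a TSS of CG34310, which is annotated over the same span as cup, and 447 bp upstream of Spn27A, a serpin gene nested in cup on the other strand.

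The gene me31B (FBgn0004419, 2L from 10239341 to 10242172), for a DEAD-box helicase of silenced mRNAs, had a promoter region in replicate 3 only, in the 5′ UTR 139 bp downstream of a TSS at rank 10482. The pooled list and replicates 1 and 2 had no region at its promoter or in its body. The gene osk (FBgn0003015, 3R from 8935126 to 8938395), whose product builds the germ plasm, had no promoter region in any list. Its best regions were in a coding exon, at rank 20586 of the pooled list and 17845 of replicate 2. The nearest reproducible summit was 2976 bp upstream of osk, with pyd as the nearest gene.

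**Figure D3:**
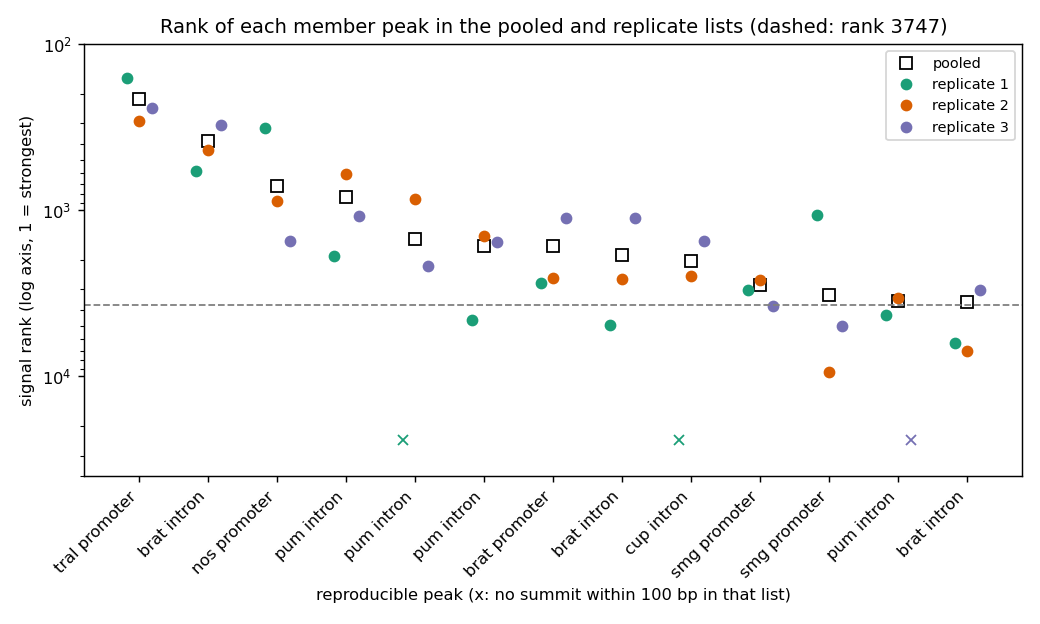
Signal rank (log axis) of the 13 reproducible peaks at the 10 genes, in order of their rank in the pooled list (open squares), with the rank of the best summit within 100 bp in each replicate list (dots; crosses where there is none) and rank 3747 dashed. The peaks of tral and the strongest intron peak of brat lie close together across lists, while the upstream peak of smg spans ranks 1063 to 9437.

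Promoter peaks shared with a neighbour were common, here and in the whole set. Of the 5 promoter peaks, 4 also lay within 500 bp of another gene's TSS, and for 3, those of tral, nos and brat, that TSS was the nearer one. Over the whole set, 40.1% of the 2020 promoter summits lay within 500 bp of a TSS of 2 or more genes, and in 28.4% of the 2885 pairs of a gene and a promoter summit another gene's TSS was nearer. When a summit counted only for its nearest TSS, smg was the 1 gene of the 10 with a promoter peak, in place of 4, and the share of all genes was 13.7%. Which of the genes a shared peak acts on was not tested. Across the regions of any rank inside the 10 genes, coding exons held 24 of 86 in replicate 1, 18 of 77 in replicate 2 and 14 of 102 in replicate 3, and none of the 9 reproducible ones. The same shares over all gene bodies were not computed, so these counts do not show whether the 10 genes differ from the rest.

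Motif letters were searched on both strands within 50 bp of each summit, for 7 fixed motifs and for the 5 words of 8 bases with the largest excess at the 3734 summits away from these genes over flanks 300 bp away. The words were ATCGATAG, CAACACTG, TATCGATA (the DRE itself, which overlaps the first), TTTAAAAA and ATTTAAAA. Each of the first 3 was in 2.97 to 3.32% of summit windows against 0.308 to 0.428% of flanks, while the others were in 4.85% and 4.87% of summit windows against 2.36% and 2.52% of flanks. The first 3 were in 3.44 to 8.95% of all 300 bp promoters, from 250 bp before to 50 bp after the canonical TSS. None of the 13 windows at the 10 genes held any of the 5 words. In the whole regions, ATCGATAG and TATCGATA were found in the brat promoter region alone, CAACACTG in the cup region alone, and these were in 7.07%, 7.31% and 5.76% of the other regions. ATTTAAAA was in the brat region of rank 1859 and in 15.0% of the others. The cup match lies 127 bp from the summit and 9953 bp downstream of the nearer cup TSS, between the summit and the TSS of CG34310 named above. It is shown on the plus strand, with the reverse complement of the word in capitals.
cup intron region, chr2L:6673898-6673945: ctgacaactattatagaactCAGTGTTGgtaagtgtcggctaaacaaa
The DRE core CGATA was in 3 of the 13 windows, GAGAG in 3 and TATAAA in 1, against 20.5%, 9.96% and 15.1% of the other windows and 11.7%, 15.5% and 10.8% of flanks. GGTCACAC, the core of the M1BP motif, the E-box CACGTG and CAGGTA, the start of the site that Zelda binds, were in none of the 13. Their shares were 1.63%, 1.07% and 1.74% of the other windows and 0.603%, 1.67% and 2.45% of flanks. In the whole regions, CAGGTA was found in that of nos, 174 bp from the summit, and in 7.26% of the others, while GGTCACAC and CACGTG were in none of the 13. Of all promoters, 7.52% held GGTCACAC, 4.28% CACGTG and 6.46% CAGGTA, and 46.9%, 30.2% and 45.3% held the DRE core, GAGAG and TATAAA. Promoters here are 300 bp long and the windows 101 bp, so their shares cannot be compared directly. A match is a run of letters and does not show that a factor binds there.

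Other genes of maternal mRNA control were listed by function, 59 in 8 lists. Of these, 22 had a promoter peak (37.3%, 95% Wilson interval 26.1 to 50.05%), with 22, 22 and 20 among the strongest regions of replicates 1, 2 and 3, against 18.8% of all genes. Within 250 bp, 14 had a summit (23.7%, 95% Wilson interval 14.7 to 36.0%), against 15.3% of all genes, a share that the interval covers. Many of the 22 peaks also lay within 500 bp of another gene's TSS, among them those of plu, Pop2, twin, Not1, pcm, orb, muskelin, glo, exu and orb2. When a summit counted only for its nearest TSS, 17 had a promoter peak (28.8%, 95% Wilson interval 18.8 to 41.4%), against 13.7% of all genes. Which gene a shared peak acts on was not tested. The strongest was at Trl, the gene of GAGA factor, with rank 180, its summit 141 bp downstream of a TSS. Ranks given below for replicates are those of the strongest region at the promoter, which need not have the same summit.

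The partners of Pan gu are plu and gnu, and plu had a peak at rank 1559, 297 bp upstream, while gnu had none. Of 8 genes of the CCR4-NOT deadenylase, 3 had a peak. These were the catalytic subunits Pop2 (rank 635, 122 bp upstream) and twin (rank 1518, 54 bp upstream), and the scaffold Not1 (rank 3413), which had no promoter region of any rank in replicate 2. Of 7 decapping and 5′ decay genes, only the exonuclease gene pcm had a peak, at rank 2684. Its ranks were 3126, 5675 and 2162 in replicates 1, 2 and 3.

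Of 12 repressor partners and RNA-binding regulators, 6 had a peak. They were led by yps, for a cold shock domain protein of oskar ribonucleoproteins, at rank 380, 38 bp upstream. It was followed by the fragile X gene Fmr1 at rank 1340, 59 bp upstream. Next were orb, which acts in cytoplasmic polyadenylation, at rank 1580, 280 bp upstream, and the DEAD-box helicase gene bel at rank 1830, 55 bp upstream. The rank of yps was 516, 430 and 303 in replicates 1, 2 and 3, close to each other, while that of Fmr1 was 1329, 4845 and 824. Of 5 genes of the CTLH ubiquitin ligase, which removes Cup, ME31B and Trailer hitch during the transition, 2 had one, among them muskelin (rank 361, 31 bp downstream).

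Of 18 germ plasm and mRNA localisation genes, 5 had a peak, among them the RNA-binding protein gene glo (rank 576), the dynein adaptor gene egl (rank 1201), exu, needed to localise bicoid mRNA (rank 2145), and Tm1, needed to transport oskar mRNA (rank 2523). In replicate 2 alone 8 of them had a region among the strongest, against 5 in each of the other replicates. Of 5 factors of zygotic genome activation, Trl, the acetyltransferase gene nej (rank 1885, 422 bp upstream) and the zinc finger gene Clamp (rank 3530, 470 bp downstream) had a peak. Clamp ranked 3708, 3896 and 4477 in replicates 1, 2 and 3, so that 3, 2 and 2 of the 5 were among the strongest regions there, and 2 of 5 has an interval of 11.8 to 76.9%. Of the polyadenylation genes wisp and orb2, orb2 had one at rank 1825. Each list is small and its interval wide, and no list was tested against the others. Shares of single lists within 250 bp were not computed.

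**Figure D4:**
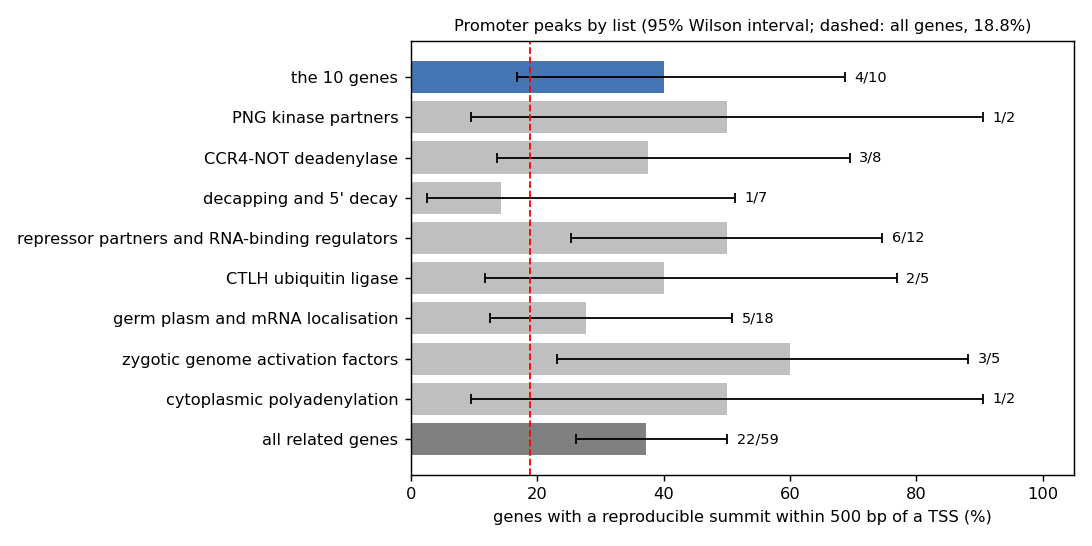
Percentage of genes with a reproducible summit within 500 bp of a TSS, for the 10 genes, the 8 related lists and all 59 related genes, with 95% Wilson intervals (counting error only) and the number of genes at the right; the dashed line is 18.8%, the share over all protein-coding genes. Decapping and 5′ decay, with 1 of 7, is the list below the line, and with 500 bp the intervals of the repressor and zygotic activation lists and of all 59 genes lie above it, the zygotic one with 3 of 5 genes only. In these lists the summits of orb, nej and Clamp lay 280, 422 and 470 bp from a TSS. Shares of single lists within 250 bp were not computed.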

How the data were processed

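CG9609-GFP ChIP-seq of 3 biological replicates was analysed from peak lists in the narrowPeak layout and build dm6. The authors deposited 1 list per replicate, 1 called on the pooled replicates and 1 thresholded by the irreproducible discovery rate, per the deposited file records. Sonicated fragments were 200 to 800 bp, per the labels. The signal values were deposited by the authors, and their scale, like the aligner, caller and cutoffs, is not given in the sources used here. Read depth is unknown.

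Summits are the region start (column 2) plus the deposited offset (column 10), given from 1. Ensembl release 115 (BDGP 6.54), on the dm6 assembly, supplied every TSS of protein-coding transcripts. The RefSeq genome of that assembly supplied sequence, and stretches of UTR were not printed. nos, Dcp1 and Dcp2 were matched by gene ID, and Gid8a was not matched. Shares carry 95% Wilson intervals (scipy 1.17.1). Gene assignment was tested on simulated data. The named genes are the 10 members, genes with a TSS within 500 bp of their promoter summits, and up to 4 genes with the strongest promoter peaks in each list. Genes at the cup summit and nearest to summits away from the members were named after their values were seen, as was the 10 kb length class. Members and lists were chosen with earlier results of these data known. The dm3 lists were not used here, and some named genes are not reported here.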

Additional observations from a re-analysis of the deposited data

How the results depend on the processing

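The 4 genes with a promoter peak became 3 within 250 bp (without nos, 15.3% of all genes). With canonical TSSs they became 3 as well (without smg, 16.7% of all genes). They were also 3, without smg, in the 1873 strongest peaks of the set and in the replicate consensus, which held 2023 peaks. When only the nearest TSS counted, 1 was left. A wider window and whole regions can only add genes, and with either the same 4 genes were found. The strongest pooled regions are the reproducible set itself, so they gave the same 4 genes with a promoter peak by construction and are no separate check. Leaving out 1 replicate at a time, with peaks shared by the others, gave 3 to 4 such genes, 2 to 3 genes and 2 to 5 summits for gene bodies (2 and 2 without replicate 2, from fewer peaks), 15 to 18 related genes and 13.0 to 14.0% of all genes. In those 1873 peaks, 2 genes had a body peak with 5 summits, against 5.91% of all genes with a body peak. There, 13 related genes had a promoter peak, as did 10.7% of all genes. In the consensus, 2 genes had a body peak with 2 summits, against 6.38% of all genes with a body peak, and 11.6% of all genes had a promoter peak. Both sets hold fewer peaks by construction. Within 250 bp, 14 related genes (23.7%) had a promoter peak, and 17 (28.8%) did when only the nearest TSS counted (13.7% of all genes). Whole replicate lists held 10 of the 13 member peaks in all replicates, in place of 5. These lists are far longer, and the share of the whole set found in them was not computed. No paired analysis was possible because there is 1 group.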
